A study of Mus musculus with 24 samples.

Results

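The transcriptome of the cerebellum was compared between mice with an expanded repeat in Atxn2 and their wild-type littermates. In CAG42 mice, the first exon of Atxn2 was replaced by a copy with an expanded CAG repeat, after whose length the line is named, whereas the WT mouse gene has no such expansion. The labels call the genotypes Atxn2 Knock-In and wild type. The samples were chosen by the tissue and genotype in their labels: 8 of the 24 arrays of the series held cerebellum RNA, 4 of CAG42 and 4 of WT mice. The other arrays held brainstem (4 CAG42 and 4 WT) and liver (4 CAG42 and 4 WT). All mice were of the same advanced age according to the methods. The CAG42 mice were homozygous, and the expanded gene was driven by the endogenous Atxn2 promoter in every cell type. The line was made by gene targeting in embryonic stem cells of another strain and backcrossed to C57BL/6, and both genotypes came from matings of heterozygotes. The sources used here do not state their sex.

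Ataxin-2, the product of Atxn2, is a cytoplasmic protein that binds poly(A)-binding protein and takes part in the control of mRNA stability and translation and in the formation of stress granules. In people, long glutamine tracts in this protein cause spinocerebellar ataxia type 2, in which Purkinje neurons, the output cells of the cerebellar cortex, are lost. The cerebellar cortex holds very many granule neurons, fewer Purkinje neurons and interneurons, and Bergmann glia and other glial cells. RNA was prepared from the whole tissue, so that fewer cells of a type and less RNA per cell cannot be told apart in any result below.

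Every value is a level on the log2 scale as deposited after RMA, which subtracts background, equalises the distributions of the arrays and combines the probes of each probe set. A difference of 1 on this scale is therefore a change of 2-fold. A probe set is a group of probes for the same transcript or transcripts. Of 45037 probe sets tested, 28898 were annotated to 1 gene, 551 to several and 15588 to none, and they covered 17097 genes. Array medians lay between 4.42 and 4.54 in CAG42 and between 4.50 and 4.54 in WT, and arrays of the same genotype correlated with r of 0.993 to 0.995. The difference between the 3′ and 5′ probe sets of Gapdh, a sign of RNA breakdown, did not separate the genotypes (−0.08 ± 0.06 in CAG42 and −0.05 ± 0.05 in WT, SD, two-sided exact permutation p = 0.514). Markers of Purkinje cells averaged 10.04 to 10.14 per array in CAG42 and 10.00 to 10.14 in WT, far above the median of 4.51 over all probe sets. Xist, a transcript of female cells, was high on every cerebellum array, at 11.73 to 11.81 in CAG42 and 11.67 to 11.86 in WT.

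Few transcripts of the old cerebellum differed between the genotypes. With limma's linear model and Benjamini-Hochberg adjustment over all probe sets, 20 of 45037 probe sets passed an adjusted p of 0.05 (0.0444%), which is referred to as a call. Of these, 4 were higher (0.00888%) and 16 were lower in CAG42 mice (0.0355%). This split depended on the setting, with 0 higher and 19 lower when CAG42 replicate 4 was left out and 10 higher and 22 lower with array weights. In 19 of the 20, the 4 CAG42 values lay wholly on one side of the 4 WT values, which was the case for 3.94% of all probe sets (1.71% above and 2.23% below WT). The calls were chosen by a p from these same values, so their separation is not separate evidence. An unadjusted p under 0.05 was reached by 3.59% of the probe sets, 1.69% higher and 1.91% lower in CAG42. The called probe sets with a gene name were 11, for 8 genes: P2rx7, Adam1a, Dap, A930024E05Rik, Aldh2 and Entpd3 were lower, and Fbxw8 and Rhobtb2 were higher. Only 37 probe sets changed by more than 1 on the log2 scale, 11 upwards and 26 downwards, and 9 of them were called. The median change over all probe sets was −0.01, and 5% of the probe sets lay below −0.20 and 5% above 0.19. The small number of mice limits the precision, and the median standard error of a change was 0.12.

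The strongest decrease among the called named genes was that of P2rx7, an ATP-gated cation channel that in brain is best known from microglia. Its probe set 1439787_PM_at read 3.62, 3.98, 3.76 and 3.89 in CAG42 cerebella, against 4.95, 4.69, 5.02 and 5.15 in WT cerebella. The genotypes did not overlap, and the lowest WT value stood 0.71 above the highest CAG42 value. The change was -1.14 on the log2 scale (0.455-fold, SE 0.16, adjusted p = 0.00189, limma). The other P2rx7 probe sets were dim: 1419853_PM_a_at differed by −0.33 without overlap, and 1422218_PM_at by −0.07. Entpd3, an ectonucleotidase that breaks down extracellular ATP, was the other purinergic gene that fell. It read 4.03, 3.93, 4.32 and 4.19 in CAG42 cerebella, against 4.36, 4.61, 4.70 and 4.75 in WT cerebella, with a gap of 0.04 between the genotypes. Its change of -0.49 had the highest adjusted p among the called named genes (0.0499, limma).

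Adam1a, known from mouse sperm as a membrane metalloprotease, fell on a pair of its probe sets. One probe set, which the platform annotation leaves unnamed and the study calls Adam1a, read 6.13, 6.41, 6.35 and 6.11 in CAG42 cerebella, against 7.20, 7.10, 6.99 and 7.0 in WT cerebella. The second, 1427790_PM_at, read 6.11, 6.48, 6.54 and 6.42 in CAG42 cerebella, against 7.33, 7.29, 7.38 and 7.26 in WT cerebella. On both, every CAG42 mouse was below every WT mouse, and the changes were -0.82 and -0.93 (adjusted p = 0.00189 and 0.0225, limma). The remaining probe set, 1427791_PM_a_at, was dim in both genotypes (mean log2 level 2.76 in CAG42 and 2.84 in WT). The nearby paralog Adam1b differed by −0.01.

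Dap, which codes for a death-associated protein known as a brake on autophagy, was lower on both of its probe sets. On 1423790_PM_at its log2 levels were 4.82, 5.09, 5.24 and 5.73 in CAG42 cerebella, against 5.95, 5.84, 6.29 and 6.19 in WT cerebella, and all CAG42 values were the lower ones. On 1451112_PM_s_at they were 6.47, 6.75, 6.50 and 7.29 in CAG42 cerebella, against 7.60, 7.25, 7.73 and 7.42 in WT cerebella. Here CAG42 replicate 4 reached into the WT range, and on both probe sets it was the highest of the CAG42 mice. The changes were -0.85 and -0.74 (adjusted p = 0.00956 and 0.0431, limma).

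The RIKEN transcript A930024E05Rik showed a decrease with little spread, with log2 levels of 6.57, 6.71, 6.62 and 6.60 in CAG42 cerebella, against 7.32, 7.21, 7.53 and 7.37 in WT cerebella. The CAG42 mice differed among themselves by 0.14 at most, and the change was -0.73 (SE 0.12, adjusted p = 0.00956, limma). Aldh2, the mitochondrial enzyme that oxidises acetaldehyde and other reactive aldehydes, was lower on the dim probe set 1457155_PM_at, which read 2.90, 3.12, 3.0 and 2.93 in CAG42 cerebella, against 3.77, 3.43, 3.58 and 3.63 in WT cerebella. The genotypes were separate there (change -0.61, adjusted p = 0.0316, limma), whereas the brightest Aldh2 probe set, 1448143_PM_at, read 8.89, 8.85, 8.72 and 8.88 in CAG42 cerebella, against 8.89, 9.04, 9.08 and 8.87 in WT cerebella. On that brightest probe set the genotypes overlapped and the change was −0.13. The call of Aldh2 thus rested on 1 of its 3 probe sets.

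Fbxw8, the F-box protein that brings substrates to the cullin Cul7 and is found at the Golgi of neurons, showed the largest increase among the called probe sets. Its probe set 1426944_PM_at read 8.15, 8.16, 8.15 and 8.38 in CAG42 cerebella, against 6.79, 6.54, 7.48 and 6.65 in WT cerebella. On 1436732_PM_s_at the log2 levels were 8.25, 8.29, 8.23 and 8.51 in CAG42 cerebella, against 6.63, 6.75, 7.81 and 6.80 in WT cerebella. WT replicate 3 was far above the other WT mice on both, yet still below all CAG42 mice. The changes were 1.35 and 1.32 (2.54-fold and 2.50-fold, adjusted p = 0.0135 and 0.0225, limma). Another, dim probe set, 1458413_PM_at, pointed the same way (0.55) and did not pass.

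Rhobtb2, which serves as an adaptor of the cullin Cul3, was the second named gene that rose. Its probe set 1435674_PM_at read 7.10, 7.15, 7.56 and 7.60 in CAG42 cerebella, against 6.77, 6.41, 6.50 and 6.83 in WT cerebella. CAG42 replicates 3 and 4 stood above the other CAG42 mice, and none of the 4 overlapped with WT. The change was 0.73 (1.65-fold, adjusted p = 0.0289, limma), and 0.24 on the other probe set 1451517_PM_at.

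**Figure D1:**
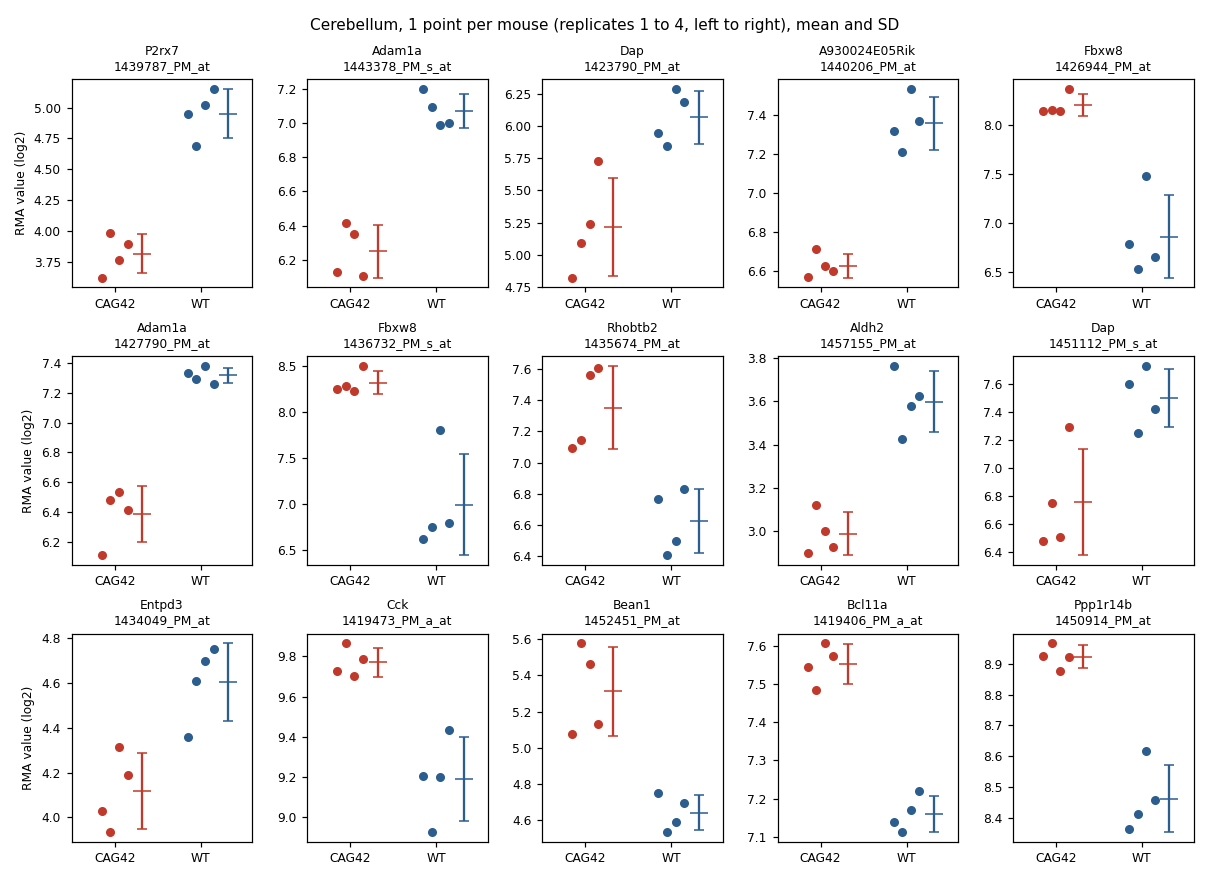
Log2 level (vertical axis, RMA) in each cerebellum for the 11 called probe sets with a gene name and for Cck, Bean1, Bcl11a and Ppp1r14b, which came next by p; CAG42 mice are on the left in red and WT mice on the right in blue, with the mean and SD (n = 4 each). The genotypes are separate in every panel except that of the Dap probe set 1451112_PM_s_at, where CAG42 replicate 4 lies at 7.29 and WT replicate 2 at 7.25.

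The largest decreases of all calls were among the 9 called probe sets left without a gene name, 8 of which were lower and 1 higher. 1443905_PM_at read 4.30, 4.58, 4.93 and 4.86 in CAG42 cerebella, against 6.88, 6.61, 6.79 and 6.65 in WT cerebella (change -2.07). 1444750_PM_at read 4.67, 5.03, 5.72 and 5.66 in CAG42 cerebella, against 7.27, 6.86, 6.83 and 7.02 in WT cerebella (change -1.72), and 1447526_PM_at read 5.49, 5.48, 5.53 and 5.87 in CAG42 cerebella, against 7.29, 7.55, 6.94 and 7.42 in WT cerebella (change -1.71). In each of these the genotypes were more than 1 apart, and the adjusted p of 1447526_PM_at was the lowest of all (1.42e-07, limma). In 1445307_PM_at, CAG42 replicate 2 stood apart: the values were 5.82, 7.49, 5.81 and 5.87 in CAG42 cerebella, against 8.30, 8.22, 8.33 and 8.11 in WT cerebella. The others were 1446429_PM_at (-1.27), 1446137_PM_at (-1.01), 1454561_PM_at (-0.63) and 1420494_PM_x_at (-0.57). The single increase was that of 1437397_PM_at (0.92).

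The calls differed in how far they depended on single mice. When each of the 8 arrays was left out in turn, P2rx7 and the Adam1a probe set named by the study passed in all 8 fits. The second Adam1a probe set, 1427790_PM_at, passed in 1 of the 8 (adjusted p of up to 0.147, limma). A930024E05Rik lost its call without CAG42 replicate 1 (adjusted p = 0.0536, limma) and without WT replicate 3 (0.0651). The Dap probe set 1423790_PM_at lost it without CAG42 replicate 1 (0.0536), CAG42 replicate 2 (0.0594), WT replicate 3 (0.0651) or WT replicate 4 (0.0592). Fbxw8 on 1426944_PM_at passed only without CAG42 replicate 3 or without WT replicate 3, and its adjusted p was 0.0836 at most in the other fits. The second probe sets of Fbxw8 (1436732_PM_s_at) and Dap (1451112_PM_s_at) passed in 1 and 2 of the 8 fits. Rhobtb2 passed in 3 of the 8 fits, Entpd3 in 2 and Aldh2 in 1, with adjusted p values of up to 0.187, 0.313 and 0.190. In place of 20 calls there were 9, 10, 15 and 19 with CAG42 replicates 1, 2, 3 and 4 left out in turn, and 13, 13, 12 and 12 with WT replicates 1, 2, 3 and 4 left out in turn. The 19 calls in the absence of CAG42 replicate 4 were all decreases, and 12 of them were among the 20. With the cerebellum arrays fitted alone, P2rx7, both Adam1a probe sets and A930024E05Rik kept their calls, whereas Dap, Fbxw8, Rhobtb2, Aldh2 and Entpd3 lost theirs. With the replicate number as a block, A930024E05Rik, Rhobtb2, Aldh2, Entpd3 and the second probe sets of Dap and Fbxw8 lost theirs.

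The next named genes by p, which did not pass, were mostly higher in CAG42 mice. Probe sets without a gene name that ranked among them were mostly lower and are not listed here. Cck, the precursor of the neuropeptide cholecystokinin, read 9.73, 9.87, 9.70 and 9.79 in CAG42 cerebella, against 9.20, 8.92, 9.20 and 9.43 in WT cerebella (change 0.58, adjusted p = 0.0668, limma). Bean1, a binding partner of the ubiquitin ligase Nedd4 whose human locus is that of another spinocerebellar ataxia, read 5.08, 5.58, 5.46 and 5.13 in CAG42 cerebella, against 4.75, 4.53, 4.59 and 4.69 in WT cerebella (change 0.67, adjusted p = 0.0749, limma). In both the 4 CAG42 values were above the 4 WT values. Bcl11a, a zinc-finger repressor of transcription, read 7.55, 7.48, 7.61 and 7.57 in CAG42 cerebella, against 7.14, 7.11, 7.17 and 7.22 in WT cerebella. Ppp1r14b, an inhibitor of protein phosphatase 1, read 8.93, 8.97, 8.88 and 8.92 in CAG42 cerebella, against 8.36, 8.41, 8.62 and 8.46 in WT cerebella. Their changes were 0.39 and 0.46 with adjusted p values of 0.0762 and 0.0935 (limma), and in each the genotypes were 0.26 apart. Both genes have further probe sets. Over the alternative settings, which include the mean of the probe sets of a gene, the changes came down to 0.18 and 0.20.

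A further 16 named genes followed down this order, with adjusted p values between 0.156 and 0.511 (limma). Those with higher values in CAG42 cerebella were Plekhd1os (0.47), the ciliary transition zone gene B9d1 (0.53), the galectin Lgals9 (0.67), Sgsm2 (0.46), the adhesion molecule Bcam (0.65), the D-type cyclin Ccnd2 (0.57), the collagen Col8a1 (0.75), the phosphate transporter Slc20a1 (0.39), Unc13d (0.53), a gene of vesicle priming, and 2310039H08Rik (0.37). Those with lower values were the cohesin subunit Stag1 (-0.60), the calcium-binding protein gene Necab2 (-0.70), Cthrc1 (-1.86), Zfp930 (-0.42), Gfpt2 (-0.48), an enzyme of the hexosamine pathway, and Tmem255a (-0.42). The genotypes overlapped in Cthrc1 and Unc13d and in none of the other 14. Each value is that of the probe set with the lowest p, which for Stag1, Ccnd2, Col8a1 and Slc20a1 was not the brightest of the gene. Over the alternative settings, which include the mean of the probe sets of a gene, changes came as near 0 as −0.18 for Stag1, 0.27 for Ccnd2 and 0.17 for Slc20a1.

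Atxn2 itself read 9.97, 9.94, 9.89 and 10.12 in CAG42 cerebella, against 9.89, 10.05, 9.96 and 10.03 in WT cerebella on its brightest probe set, and the genotypes overlapped. The change was −0.00 (SE 0.15), and the other Atxn2 probe sets lay between −0.13 and 0.08. Pabpc1, the poly(A)-binding protein to which ataxin-2 binds, read 10.90, 10.87, 10.96 and 10.83 in CAG42 cerebella, against 10.74, 10.84, 10.86 and 10.81 in WT cerebella (change 0.08). The paralog Atxn2l differed by −0.10 and −0.01 on its probe sets. These arrays thus gave no call for the targeted gene, its paralog or this partner.

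The size of the changes varied with the expression level. When the probe sets were divided into 10 bins of equal number by their mean level in cerebellum, the called ones numbered 0, 0, 0, 1, 3, 3, 5, 6, 1 and 1 from the dimmest to the brightest bin. The spread within genotypes (median SD) was largest in the middle, at 0.191 in the fifth and 0.189 in the sixth bin, and smallest in the brightest bin (0.0801). Changes of more than 0.5 were also most frequent there, with 57, 79 and 64 probe sets in the fifth, sixth and seventh bins, against 1 in the dimmest and 18 in the brightest. An unadjusted p under 0.05 was reached by 5.91% of the probe sets of the sixth bin and by 2.06% of the brightest. Of the calls, 16 lay above and 4 below the median level: Entpd3, P2rx7, Aldh2 and 1437397_PM_at were the dim ones.

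**Figure D2:**
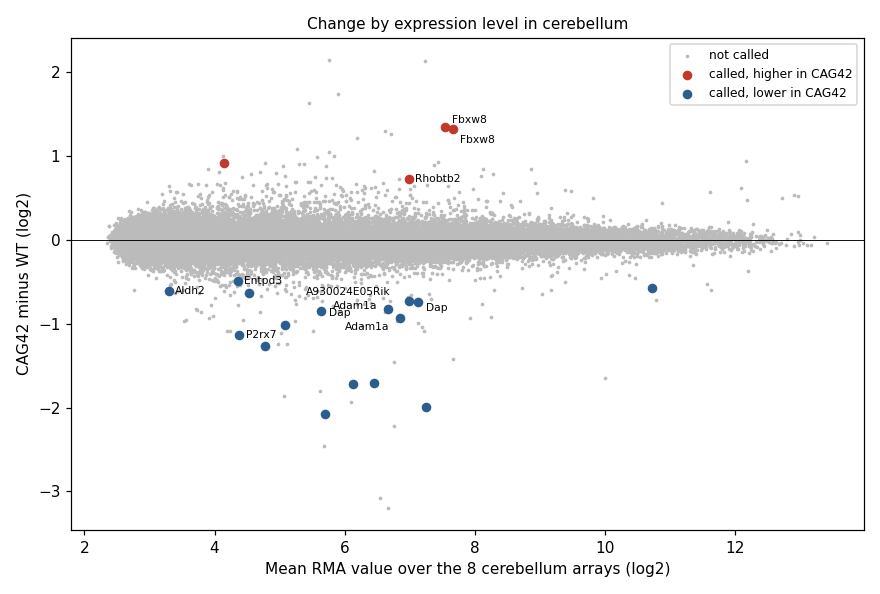
Change in cerebellum (CAG42 minus WT, log2, vertical axis) against the mean log2 level over the 8 cerebellum arrays (horizontal axis) for all tested probe sets, with the called probe sets in colour. Most points lie close to 0, the cloud is widest at middle levels, and 16 of the 20 called probe sets are above the median level of 4.51.

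The called genes were not spread evenly over the chromosomes. Of the 8 called genes, 5 lie on chromosome 5, which holds 1057 of the 17097 measured genes (6.18%) and Atxn2. All 5 were found within 100 measured genes of Atxn2 in the gene order of assembly GRCm38.p6: 5 of 201 genes (2.49%) were called there, against 3 of the other 16896 genes (0.0178%). Counted in measured genes, Aldh2 lay 3 and Adam1a 5 places before Atxn2 and Fbxw8 41 places before it, while P2rx7 lay 16 and A930024E05Rik 22 places after it. They did not move as a block. Fbxw8 rose and the other 4 fell, the median change over the 201 genes was 0.00, and 10 of them were higher and 11 lower at an unadjusted p under 0.05 (10.4%, against 3.29% of all genes). Between the called genes lay genes with small changes: P2rx4, the receptor gene next to P2rx7, read 7.80, 7.79, 7.95 and 7.80 in CAG42 and 8.09, 7.91, 8.01 and 8.02 in WT (change -0.17). Mapkapk5, between Adam1a and Aldh2, differed by 0.12.

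Other genes of this stretch had an unadjusted p under 0.001 and did not pass. Pebp1, the Raf kinase inhibitor protein, 49 places before Atxn2, read 11.26, 11.22, 11.14 and 11.66 in CAG42 cerebella, against 12.08, 11.66, 11.81 and 12.12 in WT cerebella (change -0.60, adjusted p = 0.623, limma). The highest CAG42 value and the lowest WT value coincided at 11.66. Tctn2, a gene of the ciliary transition zone 63 places after Atxn2, read 4.19, 4.55, 4.33 and 4.47 in CAG42 and 4.16, 3.83, 3.89 and 4.02 in WT (change 0.41, adjusted p = 0.555, limma). Bri3bp, 69 places after Atxn2, read 8.75, 8.73, 8.79 and 8.76 in CAG42 and 8.46, 8.28, 8.36 and 8.26 in WT (change 0.42, adjusted p = 0.606, limma). Neither of these overlapped between genotypes. The embryonic stem cells were of another strain than the backcross strain, and alleles that stayed linked to Atxn2 and the repeat itself cannot be told apart in this design.

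**Figure D3:**
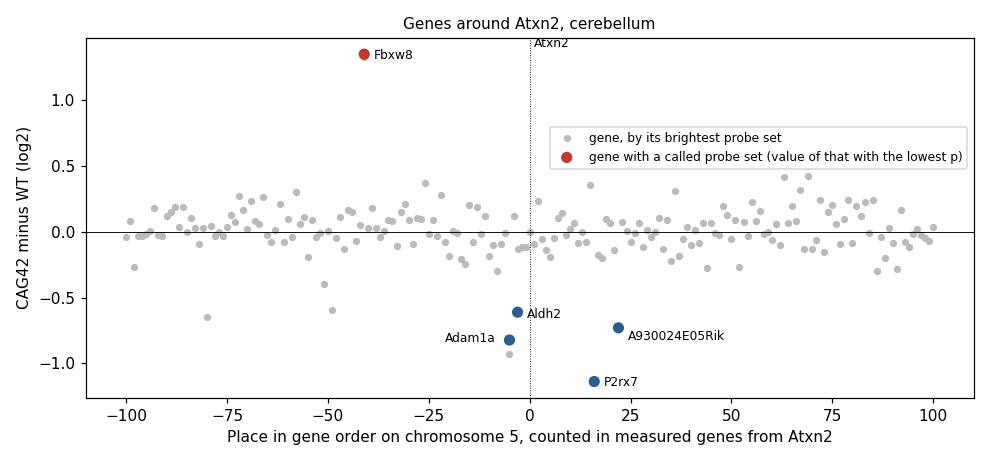
Change in cerebellum (CAG42 minus WT, log2, vertical axis) for the 201 measured genes around Atxn2, by place in gene order on chromosome 5 (horizontal axis, Atxn2 at 0); grey points are genes by their brightest probe set, and coloured points are called probe sets, red for higher and blue for lower. Fbxw8 stands at 1.35, P2rx7, Adam1a, A930024E05Rik and Aldh2 lie between −1.14 and −0.61, and nearly all other genes stay within 0.5 of 0.

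Of the 8 called genes, 5 had an entry among the RefSeq promoters. The windows of P2rx7, Adam1a and A930024E05Rik are given here because these genes lie near Atxn2 and fell. Aldh2 and Fbxw8, also near Atxn2, had no entry. The sequences are from RefSeq on GRCm38.p6, from 250 bases before to 50 bases after the annotated start, 5′ to 3′ on the strand of the gene. They are P2rx7 (chr5:122643677-122643976, plus strand, the first of 2 starts in the table), Adam1a (chr5:121521646-121521945, minus strand) and A930024E05Rik (chr5:122989104-122989403, plus strand). Capitals mark matches to the GC box GGGCGG or the CCAAT box CCAAT on either strand.
P2rx7: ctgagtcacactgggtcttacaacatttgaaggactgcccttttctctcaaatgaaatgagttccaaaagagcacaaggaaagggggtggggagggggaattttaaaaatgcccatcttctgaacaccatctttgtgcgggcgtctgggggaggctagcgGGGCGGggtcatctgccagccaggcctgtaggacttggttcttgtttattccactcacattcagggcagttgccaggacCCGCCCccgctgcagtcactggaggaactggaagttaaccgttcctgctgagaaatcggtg
Adam1a: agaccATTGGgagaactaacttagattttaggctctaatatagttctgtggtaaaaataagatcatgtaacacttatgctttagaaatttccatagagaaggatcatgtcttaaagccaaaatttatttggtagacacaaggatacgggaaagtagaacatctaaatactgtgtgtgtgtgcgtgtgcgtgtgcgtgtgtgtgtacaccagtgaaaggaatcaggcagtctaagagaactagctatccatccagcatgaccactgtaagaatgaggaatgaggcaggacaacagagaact
A930024E05Rik: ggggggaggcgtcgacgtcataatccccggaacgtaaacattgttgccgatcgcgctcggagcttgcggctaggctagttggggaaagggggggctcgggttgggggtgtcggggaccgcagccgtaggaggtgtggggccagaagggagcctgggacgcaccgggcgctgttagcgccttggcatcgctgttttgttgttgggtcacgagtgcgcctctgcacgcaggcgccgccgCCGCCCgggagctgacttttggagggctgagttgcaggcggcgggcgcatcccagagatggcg
The P2rx7 window held 2 GC boxes, that of A930024E05Rik 1 GC box and that of Adam1a 1 CCAAT box. Across 27025 promoters of the same length, 35.9% held a GC box, 37.9% a CCAAT box and 14.2% the TATA box TATAAA, which was in none of these 3. Their GC contents were 53.3%, 39.7% and 67.3%, in the order printed, against a median of 52.7%. No letters searched for were common to all 3.

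The cerebellar calls were set beside the same probe sets in the other tissues of the series. Of the 20, 19 had the same sign in brainstem and 18 in liver, and 5 were also called in brainstem and 1 in liver. There, 7 probe sets (0.0155%) were called in brainstem and 66 (0.147%) in liver. P2rx7 averaged 4.36 in CAG42 and 5.48 in WT brainstem. Fbxw8 (1426944_PM_at) averaged 7.46 in CAG42 and 6.61 in WT brainstem, and 5.42 in CAG42 and 5.23 in WT liver. Aldh2 (1457155_PM_at) averaged 3.35 in CAG42 and 4.60 in WT brainstem, and 4.52 in CAG42 and 5.76 in WT liver, decreases larger than that in cerebellum. Adam1a on 1427790_PM_at averaged 6.05 in CAG42 and 6.58 in WT brainstem, and 3.64 in CAG42 and 4.15 in WT liver. A930024E05Rik averaged 4.92 in CAG42 and 5.33 in WT brainstem, and the unnamed 1445307_PM_at 4.38 in CAG42 and 5.98 in WT brainstem. P2rx7 passed in brainstem (adjusted p = 0.00245, limma), and Aldh2 passed in brainstem (1.19e-06) and in liver (2.04e-06). The changes of Fbxw8, Adam1a, A930024E05Rik and 1445307_PM_at passed in neither tissue. Dap, Rhobtb2 and Entpd3 differed little between the genotypes in either tissue. Dap on 1423790_PM_at averaged 5.52 in CAG42 and 5.51 in WT brainstem, and 10.61 in CAG42 and 10.59 in WT liver. Rhobtb2 averaged 7.15 in CAG42 and 6.98 in WT brainstem, and 4.49 in CAG42 and 4.34 in WT liver. Entpd3 averaged 6.78 in CAG42 and 6.92 in WT brainstem, and 4.18 in CAG42 and 4.09 in WT liver.

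Whether an effect of the genotype in cerebellum differed from that in another tissue was tested in the same model, which treats the 24 arrays as independent. Arrays of cerebellum and brainstem with the same number deviated together in each genotype (r = 0.22 to 0.38 over probe sets). The difference from the brainstem effect passed for 1 probe set (0.00222%), 1441721_PM_at, with a change of −0.63 in cerebellum and −2.24 in brainstem. The difference from the liver effect passed for 4 (0.00888%). With the number as a random block across tissues these counts were 1 and 5, and 18 of the 20 cerebellar calls passed. Bcl11a changed by 0.39 in cerebellum and −0.36 in liver (difference 0.75, adjusted p = 0.0064, limma). Kdm2b, a histone demethylase gene 21 places from Atxn2, changed by −0.14 in cerebellum and 1.52 in liver. For 1459861_PM_s_at the changes were −0.09 in cerebellum and 2.47 in liver, and for 1447526_PM_at they were −1.71 in cerebellum and −0.46 in liver. None of the 8 named called genes had an effect that differed from another tissue after adjustment: for Dap the difference from brainstem was −0.86 with an unadjusted p of 0.000155 and an adjusted p of 1.00 (limma).

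Gene function was described through 54 lists of genes, of which 979 of 1122 were measured, each gene by its brightest probe set. By brightest probe set, 7 of 17097 genes were called (0.0409%), 1.9% were higher and 1.39% lower at an unadjusted p under 0.05, and the median change was 0.00. The genotypes did not overlap in 4.64% of the genes, 2.33% above and 2.32% below WT. The called members of any list were Fbxw8, Rhobtb2, P2rx7, Entpd3, Dap and Adam1a, in 5 lists. The other members of these lists were centred near 0. Of 25 members of cullin ligases, 10 were above and 15 below 0 (median −0.03), with Cul7, the cullin of Fbxw8, at −0.01. Of 16 BTB adaptors, 6 were above and 10 below 0 (median −0.02). Of 25 purinergic receptors and nucleotide enzymes, 13 were above and 12 below 0 (median 0.01), and P2rx1, another ATP-gated channel, read 3.35, 3.42, 3.45 and 3.27 in CAG42 and 3.28, 2.89, 3.18 and 3.16 in WT (change 0.24, unadjusted p = 0.0498, limma). Of 16 ADAM genes, 6 were above and 10 below 0 (median −0.01). Of 20 death-associated and apoptosis genes, 9 were above and 11 below 0 (median −0.01); Diablo, which releases caspases from inhibition and lies 35 places from Atxn2, read 7.49, 7.67, 7.57 and 7.52 in CAG42 and 7.85, 7.76, 7.87 and 7.68 in WT (change -0.23).

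Lists around ataxin-2 were close to 0. Of 13 genes for ataxin-2 and poly(A)-binding proteins, 3 were above and 10 below 0 (median −0.02), and none reached an unadjusted p under 0.05. Stress granule genes (16, median −0.02) and genes of deadenylation and miRNA silencing (22, median −0.02) had none at that limit either. Of 19 other ataxia and polyglutamine genes, 4 were above and 15 below 0 (median −0.02), and Bean1 alone reached it. Proteasome genes (30, median 0.03) had none.

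Genes of cytosolic ribosomes and of respiration were mostly slightly above 0. Of 53 cytosolic ribosomal protein genes, 51 were above and 2 below 0, with a median of 0.07, and 9 had all CAG42 values above all WT values (17.0%, against 2.33% of all genes). In the brightest bin of probe sets that share was 3.0%. Only 1 of the 53 was higher at an unadjusted p under 0.05. The mean over the list overlapped, at 11.42 to 11.52 in CAG42 and 11.36 to 11.46 in WT. Of 33 genes of respiratory complex I, 31 were above 0 (median 0.07), 0 reached an unadjusted p under 0.05 and 1 had no overlap. Of 31 genes of complexes III to V, 24 were above and 7 below 0 (median 0.05), 4 were higher at an unadjusted p under 0.05, and 7 had no overlap. Among these, the ATP synthase gene Atp5d read 11.13, 11.18, 11.14 and 11.21 in CAG42 and 10.99, 10.97, 10.93 and 11.07 in WT (change 0.17). The complex III gene Uqcrq read 10.86, 10.90, 10.83 and 10.94 in CAG42 and 10.78, 10.69, 10.71 and 10.73 in WT (change 0.16). In both the genotypes were separate, with SE of 0.07 and 0.06, and none of the genes of these lists was called. Of 33 genes of the mitochondrial ribosome and its translation, 20 were above and 13 below 0 (median 0.02), and 0 had no overlap or an unadjusted p under 0.05.

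Genes of neuronal signalling leaned slightly the other way. Of 18 GABA and glycine receptor genes, 4 were above and 14 below 0 (median −0.07), of 27 potassium channel genes 8 and 19 (median −0.05), and of 19 genes of mGluR1 and calcium signalling 6 and 13 (median −0.07). Kcnj6, an inwardly rectifying channel, read 4.22, 4.59, 5.51 and 5.47 in CAG42 and 4.52, 3.30, 4.48 and 4.36 in WT (change 0.79, unadjusted p = 0.00395, limma). Kcnn2, a calcium-activated channel, read 7.71, 7.39, 7.95 and 7.83 in CAG42 and 8.13, 7.86, 8.23 and 8.08 in WT (change -0.36). The genotypes overlapped in both. Of 24 neuropeptide precursors, 13 were above and 11 below 0 (median 0.03), and besides Cck only Grp was higher at an unadjusted p under 0.05 (change 0.23, with a low log2 level of 3.19 in CAG42 and 2.96 in WT).

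Immediate early genes, which neurons switch on with activity and cells with stress, had higher values in CAG42 mice in 17 of 20 cases (median 0.23). The lowest p was that of Npas4, which read 4.27, 3.85, 3.62 and 4.50 in CAG42 and 3.74, 3.02, 3.91 and 3.35 in WT (change 0.55). Dusp1 read 10.47, 9.96, 9.49 and 10.34 in CAG42 and 9.91, 9.33, 9.57 and 9.47 in WT (change 0.50), and Nr4a2 read 7.91, 8.64, 8.08 and 7.51 in CAG42 and 7.08, 7.48, 8.55 and 6.74 in WT (change 0.58). In all 3 the genotypes overlapped, and the order of the mice differed from gene to gene: the highest CAG42 mouse was replicate 4 for Npas4, replicate 1 for Dusp1 and replicate 2 for Nr4a2. Of the 20 genes, 4 were higher and 0 lower at an unadjusted p under 0.05, and 0 were called.

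Markers of the neurons of the cerebellum did not separate the genotypes as groups. Of 15 Purkinje cell genes, 8 were above and 7 below 0 (median 0.00). The lowest p belonged to Car8, a carbonic anhydrase-related protein that binds the IP3 receptor, which read 7.72, 7.77, 7.90 and 8.55 in CAG42 and 8.19, 8.0, 8.95 and 9.21 in WT (change -0.60, unadjusted p = 0.0261, limma). CAG42 replicate 4 and the WT replicates 1 and 2 overlapped. Of 17 granule cell genes, 7 were above and 10 below 0 (median −0.01). Of 11 genes of cerebellar identity, 5 were above and 6 below 0, and the transcription factor genes Lhx1 (-0.38) and Zic2 (-0.26) were lower at an unadjusted p under 0.05. Eomes, which marks unipolar brush cells, differed by 0.45 with overlap.

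Markers of microglia and meninges were more often above than below 0, whereas those of other non-neural cells went both ways. Of 16 microglial genes, 14 were above 0 (median 0.18), among them Trem2 (0.38) and Olfml3 (0.47), while of 17 genes of Bergmann glia and astrocytes 4 were above and 13 below 0 (median −0.05). Of 14 meningeal and fibroblast genes, 13 were above 0 (median 0.20), among them Ogn (0.38) and Fmod (0.35). The genotypes overlapped in Trem2, Olfml3, Ogn and Fmod. They also overlapped in the mean over the microglial list, at 6.08 to 6.29 in CAG42 and 5.87 to 6.19 in WT. The mean over the meningeal list was 6.50 to 6.80 in CAG42 and 6.22 to 6.57 in WT, again with overlap. Of 14 endothelial genes, 4 were above and 10 below 0 (median −0.03), and of 15 genes of perivascular macrophages and leukocytes 7 were above and 8 below 0 (median −0.01). Of 9 genes of pericytes and smooth muscle, 6 were above 0 (median 0.10). Hemoglobin transcripts followed single mice: Hba-a1 read 12.94, 13.35, 13.42 and 13.19 in CAG42 and 12.46, 12.52, 12.50 and 13.30 in WT. WT replicate 4 was as high as the CAG42 mice and the other 3 WT mice were lower. No member of these lists was called.

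The widest shift of a list was that of the choroid plexus, the tissue of the ventricles that makes cerebrospinal fluid and adheres to dissected cerebellum. Of its 12 measured genes, 11 were above 0 and Clic6 (-0.31) was below, the median was 0.58, and 4 were higher at an unadjusted p under 0.05. Ttr, the transthyretin gene, read 12.61, 12.83, 12.39 and 12.71 in CAG42 and 11.88, 12.72, 12.45 and 9.73 in WT (change 0.94). Folr1, a folate receptor gene, read 5.70, 6.59, 5.55 and 6.45 in CAG42 and 5.06, 6.14, 5.62 and 3.52 in WT (change 0.99). In both, WT replicate 4 was far below the other 7 mice, and the genotypes overlapped. The mean over the list was 6.13, 6.54, 6.02 and 6.41 in CAG42 and 5.64, 6.51, 6.13 and 4.73 in WT. Without WT replicate 4 the median of the list was 0.27. Igfbp2, a gene of the insulin and IGF list, had the same WT mouse lowest, with 8.29, 8.52, 7.87 and 8.46 in CAG42 and 7.53, 8.16, 8.20 and 7.29 in WT (change 0.49). With the 8 cerebellum arrays fitted alone, 10 probe sets were called, 1 of them higher, and with the choroid plexus level as a covariate in that fit 1 was called, 1443905_PM_at.

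**Figure D4:**
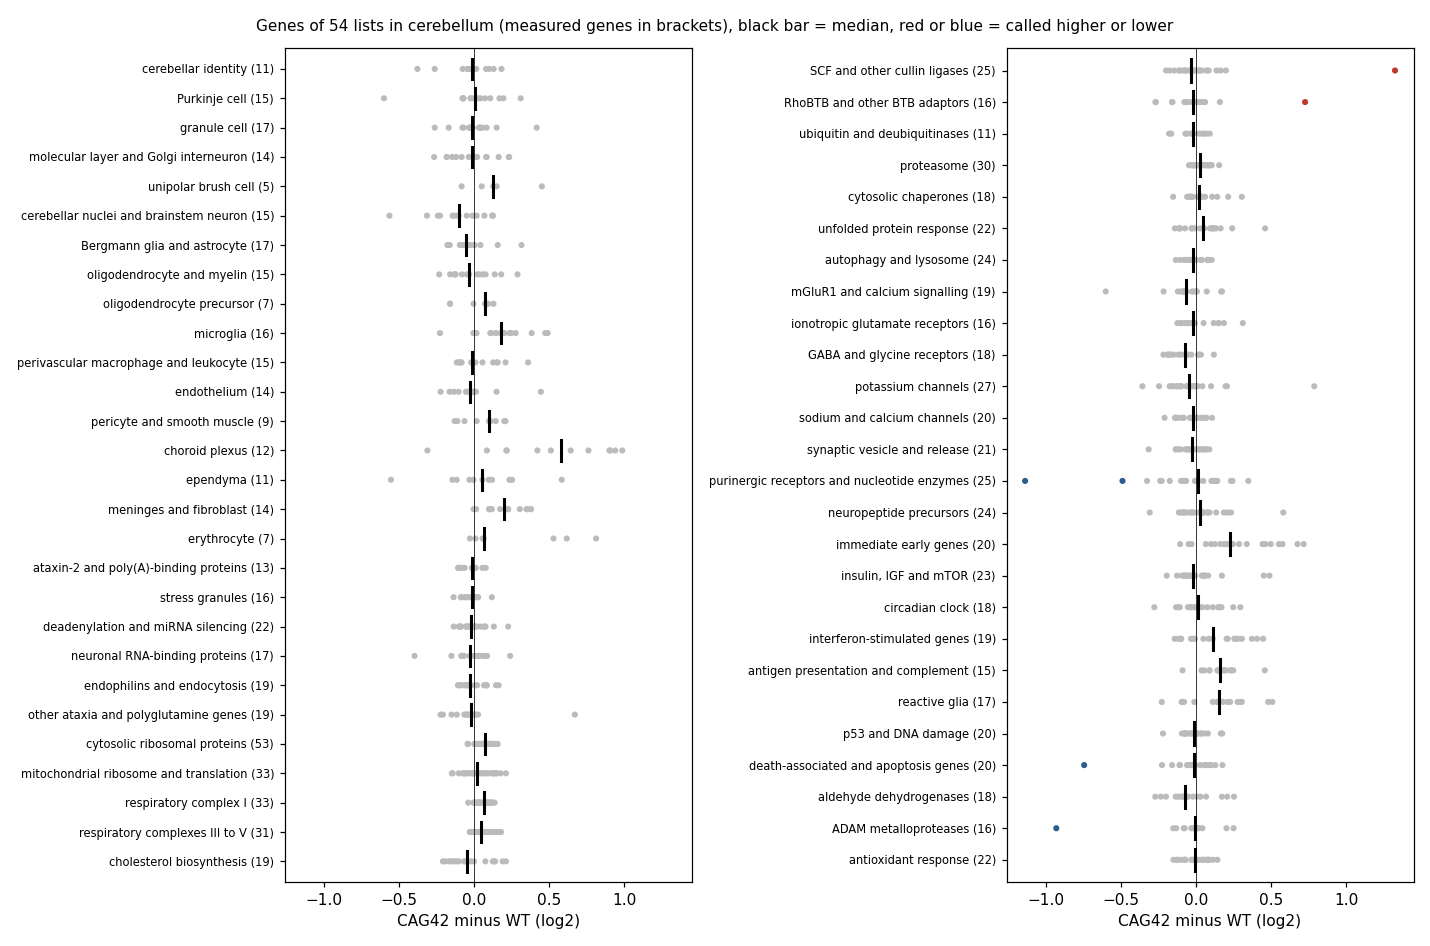
Change in cerebellum (CAG42 minus WT, log2, horizontal axis) of the measured genes of 54 lists, 1 row per list and 1 point per gene by its brightest probe set; the black bar is the median of a list, and called genes are red (higher) or blue (lower). The highest medians are those of the choroid plexus (0.58), immediate early genes (0.23), meninges (0.20) and microglia (0.18). Each called gene is the only one called in its row, except P2rx7 and Entpd3, which share the row of purinergic receptors and nucleotide enzymes.

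Some genes differed more between mice of 1 genotype than between the genotypes. An SD over 1 within CAG42 or WT was found for 155 probe sets (0.344%) of 81 named genes, 59 in CAG42 alone, 53 in WT alone and 43 in both. Of the 37 probe sets with a change over 1, 24 were among them. Pttg1, the securin gene, read 5.37, 10.66, 10.41 and 10.24 in CAG42 cerebella, against 10.47, 10.51, 11.20 and 11.09 in WT cerebella. CAG42 replicate 1 alone was low. Cthrc1, a secreted protein gene, read 3.39, 3.65, 3.52 and 5.96 in CAG42 cerebella, against 5.93, 5.70, 6.27 and 6.04 in WT cerebella. Here CAG42 replicate 4 had a WT level and the other 3 were low, and without that mouse the change was −2.46 with an adjusted p of 0.00214 (limma), against -1.86 and 0.378 with it.

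Other such genes split the mice into high and low values. Ccnb1ip1, an E3 ligase gene known from meiosis, read 5.96, 5.58, 3.02 and 2.89 in CAG42 cerebella, against 5.56, 5.52, 6.06 and 5.25 in WT cerebella. Ppip5k1, an inositol pyrophosphate kinase gene, read 5.11, 5.42, 8.51 and 7.65 in CAG42 cerebella, against 7.59, 7.82, 7.70 and 7.90 in WT cerebella. Each had 2 CAG42 mice at or above the level of WT and 2 that were lower, and they were not the same mice. Gdpd3, a lysophospholipase D gene, read 8.45, 4.89, 4.49 and 7.46 in CAG42 cerebella, against 4.36, 7.88, 9.62 and 7.31 in WT cerebella. Slc15a2, a peptide transporter gene, read 8.19, 7.66, 8.0 and 5.50 in CAG42 cerebella, against 8.57, 5.0, 5.20 and 5.53 in WT cerebella. Both had high and low mice in each genotype, and the difference between the genotypes was smaller than the range within them. Pcdhb9, a clustered protocadherin gene, was low in WT replicate 1 alone (2.65, against 6.37 to 6.75 in the other WT mice and 6.43 to 7.08 in CAG42). Gm5089 and Nrip2 had differences of 1.30 and 1.04, and none of these 9 genes passed the test. Together with Fbxw8, they were the 5 largest rises and the 5 largest falls by brightest probe set among genes above the median level. Larger differences were read on dimmer probe sets of other genes, such as Prune2 (−3.08) and Xaf1 (2.14), whose brightest probe sets differed by 0.06 and −0.02.

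Replicate numbers that were high or low in cerebellum were often so in the other tissues. In the 198 groups of 4 cerebella with an SD over 1, the highest number or the lowest number was the same in brainstem in 176 (88.9%) and in liver in 148 (74.7%), against 47.3% in brainstem and 47.3% in liver over all 90074 groups. Pttg1 read 7.63, 11.08, 11.07 and 10.90 in CAG42 brainstem and 7.94, 10.23, 10.07 and 9.96 in CAG42 liver, replicate 1 again being the low one. Cthrc1 read 4.26, 4.80, 4.99 and 6.89 in CAG42 brainstem and 7.15, 7.01, 7.15 and 7.15 in WT brainstem. Gdpd3 read 8.75, 4.25, 3.98 and 8.99 in CAG42 liver and 4.38, 8.68, 10.27 and 8.45 in WT liver. Exceptions were found in liver, where Cthrc1 was low in all mice and CAG42 replicate 4 was the lowest of its genotype (2.83), and where WT replicate 1 had the lowest Gm5089 value of its genotype (3.71), not WT replicate 2 as in cerebellum. The labels do not say that a number marks the same mouse in all tissues.

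**Figure D5:**
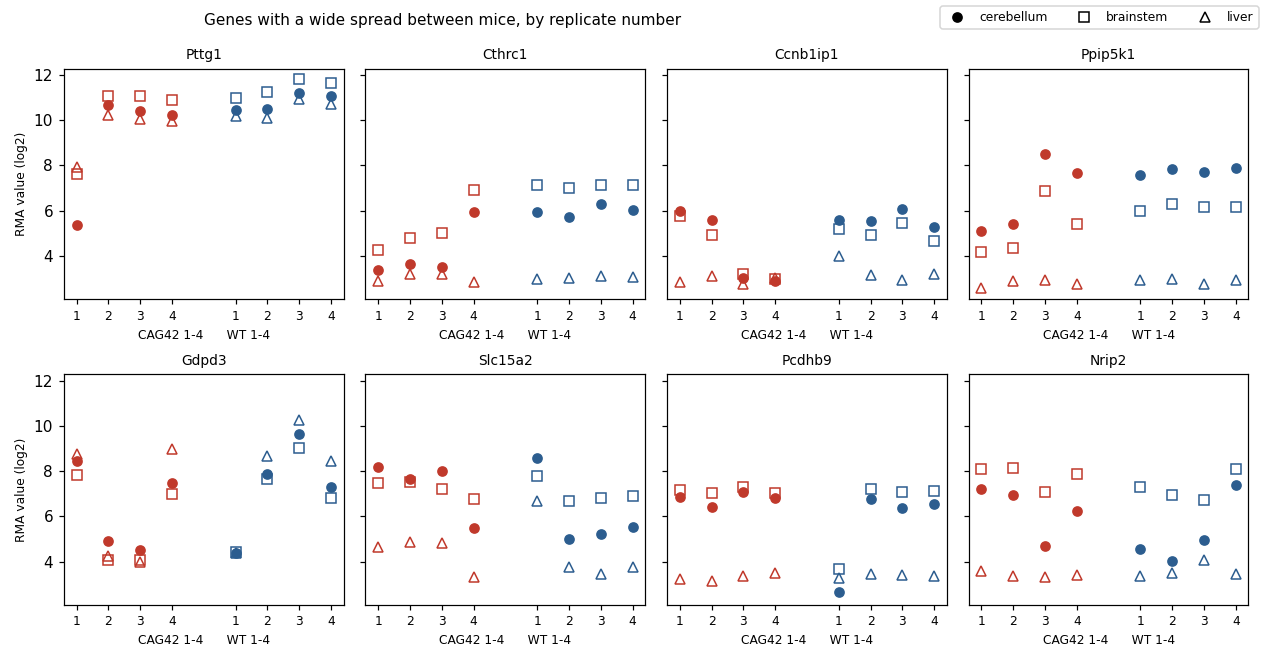
Log2 level (vertical axis) of 8 genes with an SD over 1 within a genotype, by replicate number (horizontal axis, CAG42 1 to 4 at left and WT 1 to 4 at right), in cerebellum, brainstem and liver. For Pttg1 CAG42 replicate 1 is lowest in all 3 tissues, and for Gdpd3 the high and low numbers are the same in each tissue.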

How the data were processed

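The authors hybridized RNA to Affymetrix mouse arrays and normalized the scans with RMA, so the deposited values are on the log2 scale. The submitters' processing notes name R 2.7.0. Labels and methods differ on the RNA preparation and on the array version. Scan dates, detection calls and raw intensities were not used here, so no batch could be tested.

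With limma 3.58.1 (R 4.3.3), 1 mean for each tissue and genotype was fitted over 24 arrays to 45037 probe sets; the 104 control probe sets were dropped. Log2 fold changes are CAG42 minus WT, and p-values were adjusted after Benjamini-Hochberg over all probe sets of a comparison. A gene in a list was represented by the brightest of its probe sets, by the mean over the 8 cerebellum arrays. Names came from the platform annotation, updated through RefSeq on GRCm38.p6, which also gave gene order; 1 Adam1a probe set was named by the study. Places in gene order carry no coordinates because no source used here names the authors' build. The procedure was tested on simulated data.

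Named genes are the called probe sets, Adam1a, Fbxw8, Atxn2 and Pabpc1, the next genes by p up to 30 genes, the 5 largest changes each way among genes above the median level, and up to 3 list members with the lowest p. Clic6, P2rx4, Mapkapk5, Adam1b, Atxn2l, Cul7, Prune2, Xaf1 and the neighbours of Atxn2 were added with their values in view. The comparisons, lists and rules were chosen with earlier results of these data known. Alternatives were the cerebellum alone, a choroid plexus covariate, replicate blocks, array weights, other priors, quantile normalization, a filter on dim probe sets, the mean of the probe sets of a gene, an F statistic and leaving out each array. Plots were made with Python 3.11.15 and matplotlib 3.10.9.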

Additional observations from a re-analysis of the deposited data

Results flagged for a closer look

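In 21 of 282 groups of 4 CAG42 or 4 WT cerebella (7.45%) the highest or lowest sample lay far from the others by Dixon's criterion, which compares the gap to the nearest sample with the whole range; chance does this in about 1 in 20 groups. Among the called probe sets, Fbxw8 was highest in CAG42 replicate 4 on 1426944_PM_at (gap over range 0.956) and in WT replicate 3 on 1436732_PM_s_at (0.857); neither led to overlap. Among the unnamed calls, 1447526_PM_at was high in CAG42 replicate 4 (0.868), 1446429_PM_at in WT replicate 3 (0.913), 1446137_PM_at in CAG42 replicate 3 (0.925) and WT replicate 4 (0.850), and 1445307_PM_at in CAG42 replicate 2 (0.963).

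Of the genes with a wide spread between mice, Cthrc1 stood apart in CAG42 replicate 4 (0.898), Pttg1 in CAG42 replicate 1 (0.920), Slc15a2 in WT replicate 1 (0.851) and Pcdhb9 in WT replicate 1 (0.908). P2rx4 was high in CAG42 replicate 3 (0.908), within a range of 0.17. Kcnj6 was low in WT replicate 2 (0.865). The hemoglobin genes Hba-a1 (0.930) and Hbb-b2 (0.857) and the erythrocyte list mean (0.867) were high in WT replicate 4, which was also lowest in the choroid plexus list. The list means of meninges (0.984, CAG42 replicate 1), perivascular macrophages (0.914, CAG42 replicate 4) and mitochondrial ribosome genes (0.969, CAG42 replicate 2) each had 1 mouse above the rest. The array median was lowest in CAG42 replicate 1 (0.915), and the difference between the 3′ and 5′ probe sets of Gapdh was lowest in WT replicate 1 (0.865).

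The genotype effect in cerebellum differed from that in brainstem for 1441721_PM_at (difference 1.61). It differed from that in liver for Bcl11a (0.75), 1447526_PM_at (−1.25), Kdm2b (−1.66) and 1459861_PM_s_at (−2.55), each by a test of the difference in limma's model.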

How the results depend on the processing

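The number of called probe sets in cerebellum, 20 as reported, was 32 with array weights, 10 with the cerebellum arrays fitted alone, 1 in that fit with the choroid plexus level as a covariate, and 13 with the replicate number as a block. It was 6 genes when the probe sets of a gene were averaged. All 20 probe sets were among the 32, and 8 of them were among the 10. Over the settings other than single arrays left out, adjusted p (limma) reached 0.806 for Entpd3, 1.00 for Aldh2 and 0.584 for Rhobtb2. It reached 0.806 for both Dap probe sets, and 0.498 and 0.789 for Fbxw8 on 1426944_PM_at and 1436732_PM_s_at. For Adam1a it reached 0.216 on the probe set named by the study and 0.155 on 1427790_PM_at. For A930024E05Rik it reached 0.230 and for P2rx7 0.155. Leaving out 1 array gave 9 to 19 calls. The number of probe sets whose effect differed from brainstem, 1 as reported, was 0 without dim probe sets and 0 with averaged probe sets (293 at an unadjusted p under 0.05 in both, limma), and 1 to 2 with 1 array left out (2 without CAG42 replicate 4). For liver, 4 as reported, it was 1 with averaged probe sets, 2 with the replicate block, and 4 to 8 with 1 array left out (8 without CAG42 replicate 4). The log2 change of Atxn2 (1419866_PM_s_at), just below 0 as reported, was 0.0054 with array weights, 0.0069 with quantile normalization and −0.0485 to 0.0275 with 1 array left out. That of Pabpc1 was −0.011 with averaged probe sets. The cause of these differences was not tested, except that averaging leaves fewer features. The choroid plexus median lay between 0.27 (without WT replicate 4) and 0.80 (without WT replicate 2), and that of ribosomal protein genes between 0.05 and 0.09. Of genes that did not pass, array weights called Cck, Bean1, Bcl11a, Ppp1r14b, Sgsm2, Stag1 and Bri3bp, the filter on dim probe sets Cck, Bean1 and Bcl11a, quantile normalization Bean1, the F statistic Bcl11a, Ppp1r14b and Bri3bp, and the fit without WT replicate 4 Cck (adjusted p = 0.0384, limma). Same-numbered CAG42 and WT cerebella did not deviate together (r = −0.174, −0.110, −0.0824 and 0.142), and different numbers gave r of −0.113 to 0.175. These correlations cannot tell whether a number marks a litter or batch, because animals that share one need not deviate together. Of the 13 calls with the block, 12 were among the 20. Without background values, how far dim calls stand above background was not tested.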
